A study of Mus musculus with 2 samples.

Results

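The Wnt list held 49 genes: 19 Wnt ligands, 10 frizzled receptors, 4 Dickkopf (Dkk), 4 secreted frizzled-related (Sfrp) and 4 R-spondin (Rspo) genes, and 8 genes given by name (Frzb, Wif1, Lrp5, Lrp6, Apcdd1, Notum, Axin2 and Ror2). They were taken by symbol from the 19070 genes that both libraries list, without use of any measured value. The data were 2 single-cell RNA-seq libraries of tumours grown under the skin of mice from LLC, the Lewis lung carcinoma cell line. The anti-PD-1 library came from tumours treated with an antibody that blocks PD-1, a receptor that restrains T cells, and its cells were taken at day 7. The control library came from tumours of mice given an IgG2a isotype antibody, per the sample labels, while the series text calls these cells untreated and gives no day. The comparison asks how the LLC tumour that persisted under the antibody differed from the control tumour. Both groups carry the same tumour line; the strain, age and number of mice are not given in the sources used here. With 1 library per group there was no replicate and no test, and a difference between the libraries cannot be told apart from one between animals, dissociations or collection times.

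Wnt ligands are lipid-modified secreted proteins that bind frizzled receptors. With the co-receptors LRP5 and LRP6 they stabilise beta-catenin, which drives target genes together with TCF and LEF factors; with ROR2 and other receptors they act on cell polarity and movement without beta-catenin. Dickkopf proteins, secreted frizzled-related proteins, WIF1, NOTUM and APCDD1 restrain the signal outside or at the surface of the cell, and R-spondins raise it by sparing frizzled receptors from removal. In tumours the pathway is studied both for cancer cell growth and for its links to T cell exclusion, and loss of DKK2 has been tied to stronger killer-cell responses in mouse tumours.

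The anti-PD-1 library held 9423 barcodes and 115407230 counted molecules (unique molecular identifiers, UMIs), and the control library 8441 barcodes and 113268618 UMIs; 107 barcode sequences occurred in both. The median kept cell had 8744 UMIs in anti-PD-1 and 7473 UMIs in control. Cells were classed by marker UMIs, with no member among the markers. Tumour cells, which carried Hmga2 and the Igf2bp genes, were 5437 of 9422 kept cells (57.7%) in anti-PD-1 and 3787 of 8395 (45.1%) in control. Immune cells, which carried Ptprc, Laptm5 and other pan-leukocyte genes, were 1670 (17.7%) in anti-PD-1 and 1513 in control, a near equal share. Stromal cells were 65 (0.690%) in anti-PD-1 and 87 (1.04%) in control, made up of 39 and 46 fibroblast-like, 25 and 40 endothelial-like and 1 and 1 mural-like cells. Barcodes without a clear class or with markers of several were 2250 (23.9%) in anti-PD-1 and 3008 (35.8%) in control. The classes are ranges of marker level, not sharp types: 1049 anti-PD-1 and 834 control cells lay within 1.5 times of the tumour threshold, and 543 and 1089 within 1.5 times of the immune one. Of the stromal cells, 3 in anti-PD-1 and 7 in control lay within 1.5 times above their threshold. All 4 tumour markers were detected in the tumour cells of both libraries, at summed levels of 1107 UMIs per 1000000 (CPM) in anti-PD-1 and 1049 CPM in control. Most of each sum came from 1 marker, at 869 CPM in anti-PD-1 and 775 CPM in control. The lowest marker stood at 3.64 and 7.87 CPM. Tumour cells also carried all 10 fibroblast markers, at 2990 CPM in anti-PD-1 and 2253 CPM in control, and all 5 red blood cell markers, at 53.8 and 534 CPM; their part in the results was not tested.

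Promoters of 3 members that the results turn on are shown first: Dkk2, over 2-fold higher in anti-PD-1 tumour cells, Wnt6, lower in anti-PD-1 in all 7 tumour clusters, and Wnt10b, whose ratio differed in sign between tumour and immune cells. Each runs 5′ to 3′ on the gene's strand from 250 bases before to 50 bases after the RefSeq start (GRCm38.p6), at chr3:132085042-132085341 on the plus strand, chr1:74771642-74771941 on the plus strand and chr15:98778101-98778400 on the minus strand. Capitals mark CG pairs and the TATA box word TATAAA.
Dkk2: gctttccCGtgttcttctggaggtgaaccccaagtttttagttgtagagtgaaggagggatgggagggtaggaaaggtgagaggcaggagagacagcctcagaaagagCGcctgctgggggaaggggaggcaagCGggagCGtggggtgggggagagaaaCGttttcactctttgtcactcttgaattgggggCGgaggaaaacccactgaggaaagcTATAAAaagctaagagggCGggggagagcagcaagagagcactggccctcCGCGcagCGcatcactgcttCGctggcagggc
Wnt6: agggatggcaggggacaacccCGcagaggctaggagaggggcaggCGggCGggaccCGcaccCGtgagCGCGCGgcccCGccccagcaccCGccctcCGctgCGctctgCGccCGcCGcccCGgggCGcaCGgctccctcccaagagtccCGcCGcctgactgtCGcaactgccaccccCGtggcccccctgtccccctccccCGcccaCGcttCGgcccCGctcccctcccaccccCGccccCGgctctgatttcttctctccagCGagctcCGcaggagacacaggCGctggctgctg
Wnt10b: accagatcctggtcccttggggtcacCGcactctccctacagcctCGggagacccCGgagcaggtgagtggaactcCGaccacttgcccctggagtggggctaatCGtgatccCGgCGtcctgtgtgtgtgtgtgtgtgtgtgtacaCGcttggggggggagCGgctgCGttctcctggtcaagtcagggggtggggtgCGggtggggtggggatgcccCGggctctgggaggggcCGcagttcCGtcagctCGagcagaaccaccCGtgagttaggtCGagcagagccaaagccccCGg
The Dkk2 window held 11 CG pairs, the Wnt6 window 31 and the Wnt10b window 18, beside a median of 7 over 32851 mouse promoter windows of 300 bases. TATAAA, searched on both strands, stood in the Dkk2 window and in neither of the other windows; 13.6% of all windows hold it. The TCF and LEF word CTTTGAT, searched on both strands, was in none of the 3 windows, and 3.73% of all windows hold it.

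**Figure D1:**
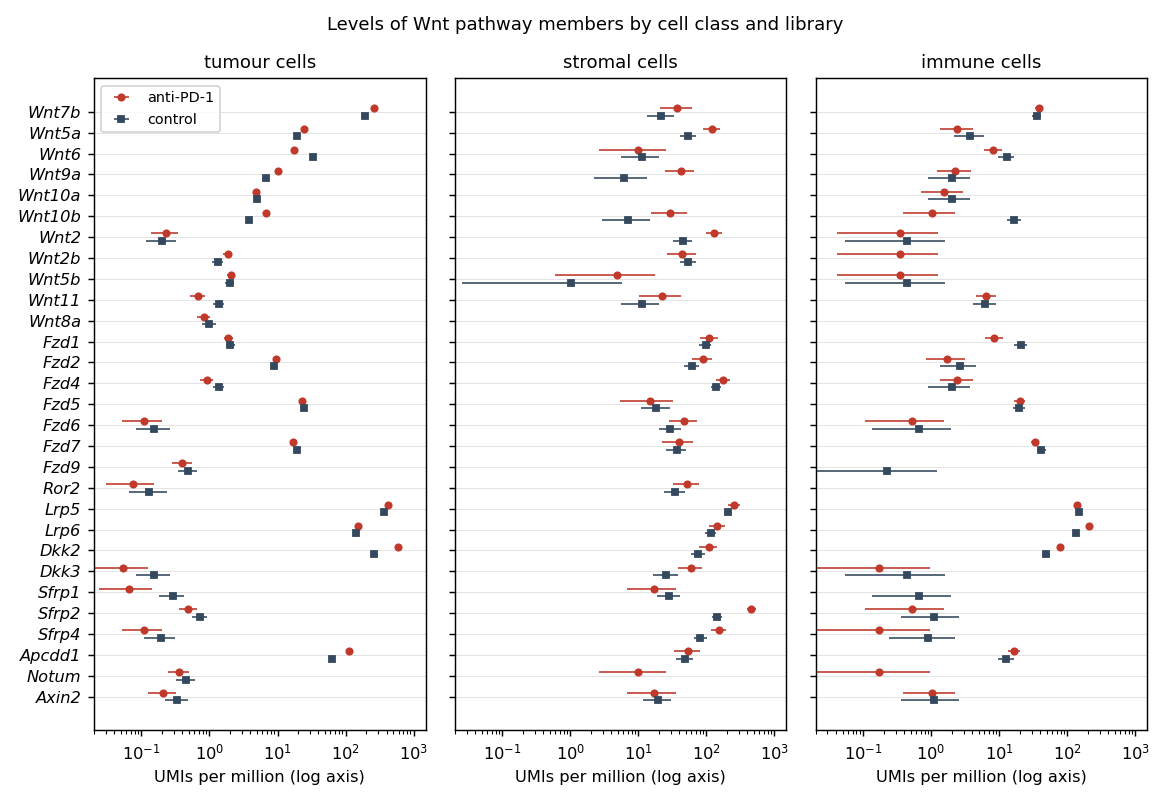
Levels of 29 members, in CPM on a log axis, in tumour, stromal and immune cells of the anti-PD-1 library (circles, upper point of each pair) and the control library (squares); bars are exact 95% Poisson intervals and cover counting error only. A library with 0 UMIs has no point. Dkk2 in tumour cells lay at 583 in anti-PD-1 and 261 in control, and Sfrp2, Sfrp4 and Wnt2 lay far higher in stromal cells than in tumour cells of either library.

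Of the 49 members, 29 reached 100 UMIs over both libraries in all kept cells and are described one by one; none was at 0 in both. At the same floor 20 members could be measured in tumour cells, 8 in stromal cells and 9 in immune cells. A member was counted as higher or lower when its CPM differed by more than 2-fold. In tumour cells 1 of 20 measured members, Dkk2, was over 2-fold higher in anti-PD-1, where 0.779% of 11817 genes were, and 1 of 20, Wnt11, was over 2-fold lower, where 2.83% were. The median log2 ratio, anti-PD-1 over control, was 0.06 for the 20 members and -0.00 for all genes measured in tumour cells.

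**Figure D2:**
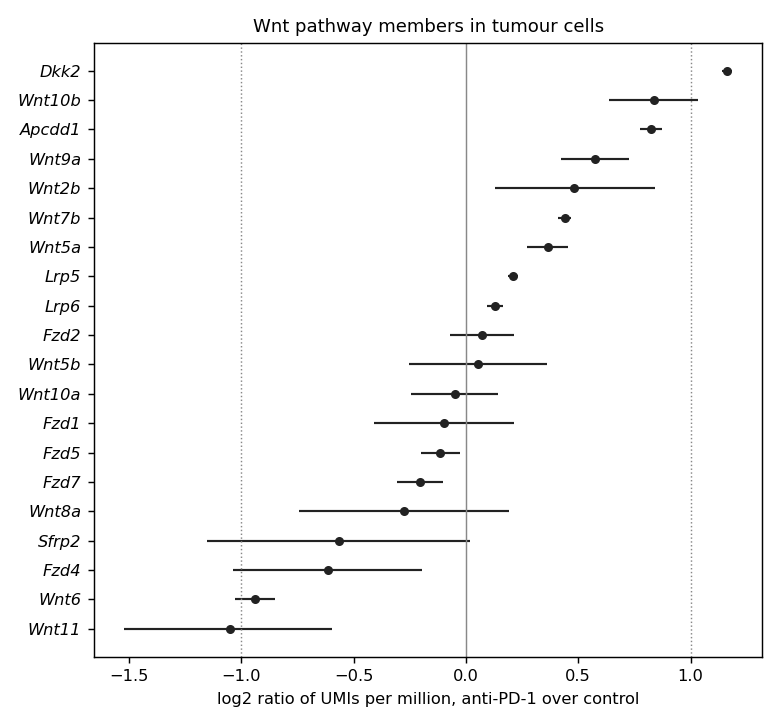
Log2 ratio of CPM, anti-PD-1 over control, of the 20 members measured in tumour cells, with exact 95% binomial intervals for counting error. Dotted lines mark 2-fold. Dkk2 lay at 1.16, Wnt10b at 0.84 and Apcdd1 at 0.82, and Wnt6 at -0.94 and Wnt11 at -1.05 at the other end.

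Among the ligands, Wnt7b, which signals through beta-catenin in lung and vascular development, was higher in the tumour cells of anti-PD-1. It had 262 CPM in anti-PD-1 (24364 UMIs) and 193 CPM in control (16207 UMIs), a log2 ratio of 0.44 (0.41 to 0.47). Thinned to 2000 UMIs per cell, 37.2% of anti-PD-1 and 27.9% of control tumour cells had a Wnt7b UMI, beside 7.00% and 5.27% of immune cells; without thinning the tumour cell share was 85.2% in anti-PD-1 and 81.9% in control. Thinning left out the shallower cells, 40 anti-PD-1 and 29 control tumour cells and 742 and 773 immune cells. In stromal cells Wnt7b stood at 36.8 CPM in anti-PD-1 and 21.5 CPM in control, and in immune cells at 38.9 and 35.5 CPM. Its immune level was 14.8% of its tumour level in anti-PD-1 and 18.3% in control, under the 5th percentile of 20.1% and 25.5% over all genes with at least 50 CPM in tumour cells. The source of the Wnt7b UMIs in immune cells was not tested, and that level was not read as expression there. Wnt7b was higher in anti-PD-1 in all 7 tumour clusters with at least 50 cells in each library, by log2 0.17 to 0.75. With these clusters weighted equally its log2 ratio was 0.34.

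Wnt6, a ligand of epithelia and developing mesoderm, went the other way in tumour cells. It had 17.5 CPM in anti-PD-1 (1628 UMIs) and 33.6 CPM in control (2817 UMIs), a log2 ratio of -0.94 (-1.03 to -0.85). All 7 tumour clusters held less Wnt6 in anti-PD-1, by log2 -1.08 to -0.67, so the difference was present in each. After thinning, 3.65% of anti-PD-1 and 6.28% of control tumour cells had a Wnt6 UMI; without thinning the shares were 21.7% and 42.1%. Immune cells had 8.16 CPM in anti-PD-1 and 12.9 CPM in control, and stromal cells 9.82 and 11.3 CPM on 4 and 11 UMIs. Wnt6 lies 6.19 kb from Wnt10a on chromosome 1, with both genes on the plus strand (Wnt6 at 74771892 to 74785322 and Wnt10a at 74791516 to 74804179, mm10). Wnt10a, a ligand of skin and tooth development, had 4.88 CPM in anti-PD-1 and 5.05 CPM in control tumour cells, a log2 ratio of -0.05 (-0.24 to 0.14), so the neighbours did not share the difference. Wnt10a was at 0 in the stromal cells of both libraries and at 1.56 and 1.99 CPM in immune cells.

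Wnt5a, the best studied ligand of the branch that does not use beta-catenin, had 24.7 CPM in anti-PD-1 and 19.2 CPM in control tumour cells, a log2 ratio of 0.36 (0.27 to 0.46). It was higher in anti-PD-1 in 7 of 7 tumour clusters, by log2 0.21 to 0.56. In immune cells Wnt5a stood at 2.43 CPM in anti-PD-1 and 3.77 CPM in control. Its close relative Wnt5b had 2.07 CPM in anti-PD-1 and 1.99 CPM in control tumour cells, with an interval of the log2 ratio of -0.25 to 0.36. Stromal cells held 2 Wnt5b UMIs in anti-PD-1 and 1 in control, and immune cells 2 and 2.

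Wnt9a, a ligand of joint and blood stem cell development, had 10.2 CPM in anti-PD-1 and 6.86 CPM in control tumour cells, a log2 ratio of 0.57 (0.42 to 0.73). It was higher in anti-PD-1 in 6 of 7 clusters and lower in cluster 12, at log2 -0.10. With the clusters weighted equally the Wnt9a ratio was 0.23, below that counting interval, so its size depended on the cluster weights. Immune cells had 2.26 CPM of Wnt9a in anti-PD-1 and 1.99 CPM in control. Stromal cells had 41.7 CPM in anti-PD-1 and 6.15 CPM in control, on 17 and 6 UMIs, of which 7 in anti-PD-1 came from 1 cell. Wnt3a lies 16.2 kb from Wnt9a on chromosome 11 and had 4 UMIs in anti-PD-1 and 25 UMIs in control over all kept cells, too few to describe. Wnt2b, a stromal ligand of the gut and lung, had 1.85 CPM in anti-PD-1 and 1.32 CPM in control tumour cells, a log2 ratio of 0.48 (0.13 to 0.84). With the 7 tumour clusters weighted equally the Wnt2b ratio was -0.05, so its direction depended on the cluster weights. It was higher in 4 clusters and lower in 3, from log2 -1.48 to 2.05, on few UMIs in each. Stromal cells had 44.2 CPM of Wnt2b in anti-PD-1 and 54.3 CPM in control, and immune cells 0.347 CPM and 0 CPM.

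Wnt11, which acts on cell movement, had 0.668 CPM in anti-PD-1 (62 UMIs) and 1.38 CPM in control tumour cells (116 UMIs), a log2 ratio of -1.05 (-1.52 to -0.60). It was lower in anti-PD-1 in all 5 tumour clusters with at least 20 Wnt11 UMIs over both libraries, by log2 -1.22 to -0.15, and in clusters 3 and 12, which had fewer. The fold passed 2 narrowly: the log2 ratio was -0.71 without cluster 12 and -0.71 with clusters weighted equally, and it fell just short of 2-fold without the barcode sequences found in both libraries. Immune cells had 6.42 CPM of Wnt11 in anti-PD-1 and 6.21 CPM in control. The immune cluster with the highest Wnt11 level was cluster 14, which was dendritic cell-like by Cd209a, Clec9a and Ccr7 and had 97.8 CPM in anti-PD-1 (21 UMIs) and 62.9 CPM in control (9 UMIs), beside 9.01 CPM (13 UMIs) and 11.7 CPM (12 UMIs) in cluster 8. Stromal cells had 9 Wnt11 UMIs in anti-PD-1 and 11 in control, at 22.1 and 11.3 CPM. Wnt8a, a ligand of early embryos, had 0.818 CPM in anti-PD-1 and 0.991 CPM in control tumour cells, with an interval of the log2 ratio of -0.74 to 0.19, and no UMI in stromal or immune cells.

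Wnt10b, a ligand known for restraining fat formation and for its expression in T cells, had 6.77 CPM in anti-PD-1 (629 UMIs) and 3.80 CPM in control tumour cells (318 UMIs), a log2 ratio of 0.84 (0.64 to 1.03). The tumour clusters did not share this difference. It lay mainly in cluster 12, led by Dmpk, Atp13a4, Gpnmb and Gria3, which had 11.8 CPM in anti-PD-1 and 4.12 CPM in control and held 35.7% of anti-PD-1 and 4.59% of control tumour cells. Of the 629 anti-PD-1 UMIs, 386 came from cluster 12, and without it the log2 ratio over tumour cells was 0.10. Wnt10b was higher in anti-PD-1 in 5 of 7 clusters and lower in 2, from log2 -0.37 to 1.51. Its neighbour Wnt1, 11.7 kb away on chromosome 15, had 3 UMIs in anti-PD-1 and 33 UMIs in control over all kept cells.

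The log2 ratios of the receptors measured in tumour cells ran from -0.61 to 0.21, and those of the ligands from -1.05 to 0.84. Lrp5, a co-receptor of the beta-catenin branch, had 418 CPM in anti-PD-1 and 362 CPM in control, a log2 ratio of 0.21 (0.19 to 0.23), and was higher in anti-PD-1 in 7 of 7 clusters. It stood highest in cluster 7, led by Adm, Nos2 and Car9, at 613 CPM in anti-PD-1 and 515 CPM in control. Lrp6, its paralog, had 153 CPM in anti-PD-1 and 140 CPM in control tumour cells, a log2 ratio of 0.13 (0.09 to 0.16), higher in 6 of 7 clusters. Stromal cells had 255 CPM of Lrp5 in anti-PD-1 and 208 CPM in control, and 145 and 116 CPM of Lrp6; the intervals of both log2 ratios included 0.

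Of the frizzled receptors in tumour cells, Fzd5, a receptor that pairs with several ligands of the beta-catenin branch, had 22.8 CPM in anti-PD-1 and 24.6 CPM in control, a log2 ratio of -0.11 (-0.20 to -0.03). Fzd7, known from stem and carcinoma cells, had 16.7 CPM in anti-PD-1 and 19.2 CPM in control, a log2 ratio of -0.21 (-0.31 to -0.10). Fzd2, a receptor for Wnt5a, had 9.43 CPM in anti-PD-1 and 8.99 CPM in control, with an interval of -0.07 to 0.21. Fzd5 and Fzd7 were each lower in anti-PD-1 in 4 of 7 clusters and higher in 3, so neither direction ran through all clusters. Fzd2 and Fzd7 stood highest in cluster 5, at 20.7 CPM in anti-PD-1 and 17.2 CPM in control for Fzd2, and 28.6 and 28.4 CPM for Fzd7; 4 of the 10 leading genes of that cluster are fibroblast markers (Col3a1, Lum, Dpt and Dcn). Fzd1 had 1.88 CPM in anti-PD-1 and 2.02 CPM in control tumour cells, Fzd4 0.904 and 1.38 CPM, Fzd6 0.108 and 0.155 CPM, and Fzd9 0.398 and 0.477 CPM. Of these the interval of the log2 ratio lay below 0 for Fzd4, at -0.61 (-1.04 to -0.20). Among the 5 clusters with at least 20 Fzd4 UMIs it was lower in 3 and higher in 2. With clusters weighted equally the Fzd4 ratio was -0.18, so its size depended on the cluster weights. Ror2, a receptor tyrosine kinase for Wnt5a, had 7 UMIs in anti-PD-1 and 11 UMIs in control over all tumour cells.

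Fzd5 was measured at 20.3 CPM in anti-PD-1 and 19.7 CPM in control immune cells, and at 14.7 and 18.4 CPM in stromal cells. Fzd7 had 34.0 CPM in anti-PD-1 and 41.9 CPM in control immune cells, above its tumour cell level in each library, and 39.3 and 36.9 CPM in stromal cells. Fzd2 had 1.74 CPM in anti-PD-1 and 2.66 CPM in control immune cells, and Fzd9 0 CPM and 0.222 CPM there, with no Fzd9 UMI in stromal cells. After thinning, a UMI of any Wnt ligand was found in 45.5% of anti-PD-1 and 38.3% of control tumour cells. A frizzled UMI was found in 10.7% of anti-PD-1 and 11.2% of control tumour cells, and a UMI of Lrp5 or Lrp6 in 68.9% and 64.3%. All 3 kinds were seen together in 3.72% of anti-PD-1 tumour cells (3.24% to 4.26%) and in 2.37% of control tumour cells (1.91% to 2.91%).

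The secreted regulator Dkk2, which binds LRP5 and LRP6, was the member over 2-fold higher in anti-PD-1 tumour cells. Tumour cells had 583 CPM in anti-PD-1 (54160 UMIs) and 261 CPM in control (21833 UMIs), a log2 ratio of 1.16 (1.14 to 1.18). The median tumour cell had 465 CPM in anti-PD-1 and 195 CPM in control, so the difference was seen in the median cell as well. The 10% of cells with most Dkk2 held 36.8% of its UMIs in anti-PD-1 and 40.1% in control. After thinning to 2000 UMIs, 59.2% of anti-PD-1 tumour cells (57.9% to 60.5%) and 36.7% of control tumour cells had a Dkk2 UMI; without thinning the shares were 93.3% and 85.4%. Immune cells had a Dkk2 UMI in 9.70% of anti-PD-1 and 6.08% of control cells after thinning, and stood at 78.8 and 48.3 CPM. That immune level was 13.5% of the tumour level in anti-PD-1 and 18.5% in control, again under the 5th percentile of all genes. The source of the Dkk2 UMIs in immune cells was not tested. Their log2 ratio of 0.71 (0.47 to 0.95) was not read as a difference of expression there. Stromal cells had 108 CPM of Dkk2 in anti-PD-1 and 74.8 CPM in control, with an interval of the log2 ratio of -0.04 to 1.09.

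Dkk2 was higher in anti-PD-1 in each of the 7 tumour clusters. The log2 ratio was 1.44 in cluster 4, led by Col8a1 and Fads2, where the level was 720 CPM in anti-PD-1 and 266 CPM in control. In cluster 3, led by the interferon-response genes Ifit3 and Cxcl10, it was 1.54, with 492 CPM in anti-PD-1 and 170 CPM in control. In cluster 5 it was 0.81, the lowest, with 424 CPM in anti-PD-1 and 241 CPM in control. In no cluster did the control level reach the anti-PD-1 level of any cluster: the highest control value was 280 CPM, in cluster 11, and the lowest anti-PD-1 value 424 CPM, in cluster 5. The cluster makeup of the 2 libraries differed widely, with cluster 11 (Fosb, Il24 and Trib3) at 5.41% of anti-PD-1 and 34.1% of control tumour cells and cluster 4 at 27.7% and 13.4%. With all clusters weighted equally the log2 ratio of Dkk2 was 1.12.

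**Figure D3:**
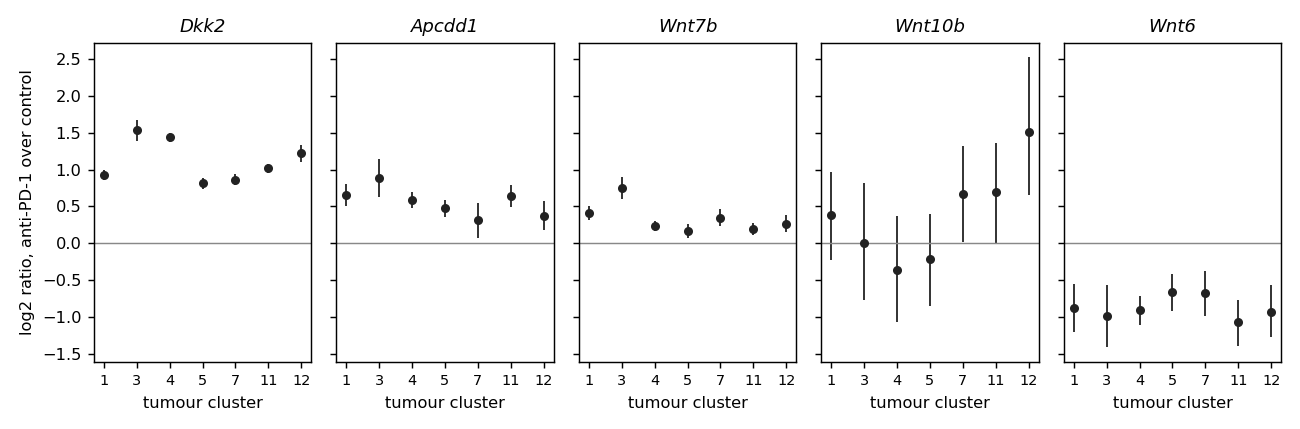
Log2 ratio of CPM, anti-PD-1 over control, of 5 members within each of the 7 tumour clusters; points are ratios and bars exact 95% binomial intervals for counting error. Dkk2, Apcdd1 and Wnt7b lay above 0 and Wnt6 below 0 in every cluster, and Wnt10b ran from -0.37 in cluster 4 to 1.51 in cluster 12.

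Apcdd1, a membrane protein that inhibits the Wnt signal at the receptor and is itself a known target of the pathway, had 111 CPM in anti-PD-1 (10314 UMIs) and 62.7 CPM in control tumour cells (5254 UMIs), a log2 ratio of 0.82 (0.78 to 0.87). It was higher in anti-PD-1 in 7 of 7 tumour clusters, by log2 0.31 to 0.88. With the clusters weighted equally the Apcdd1 ratio was 0.56, below that counting interval, so its size depended on the cluster weights. The level was lowest in cluster 7, at 41.4 CPM in anti-PD-1 and 33.3 CPM in control. After thinning, 19.7% of anti-PD-1 and 12.7% of control tumour cells had an Apcdd1 UMI; without thinning the shares were 65.7% and 55.1%. Immune cells had 16.7 CPM in anti-PD-1 and 12.6 CPM in control, and stromal cells 54.0 and 48.1 CPM. Axin2, a negative-feedback gene widely used as a readout of the beta-catenin branch, was close to undetected in tumour cells. It had 19 UMIs (0.205 CPM) in anti-PD-1 and 28 UMIs (0.334 CPM) in control tumour cells, against 7 UMIs (30.2 CPM) in anti-PD-1 and 16 UMIs (29.4 CPM) in control fibroblast-like cells. Immune cells had 1.04 CPM of Axin2 in anti-PD-1 and 1.11 CPM in control. Notum, an enzyme that removes the lipid of Wnt ligands and another feedback gene, had 33 UMIs (0.355 CPM) in anti-PD-1 and 38 UMIs (0.454 CPM) in control tumour cells, with 4 and 0 UMIs in stromal and 1 and 0 UMIs in immune cells.

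In stromal cells 2 of 8 measured members, Sfrp2 and Wnt5a, were over 2-fold higher in anti-PD-1, where 0.953% of 3042 genes were, and 0 of 8 were over 2-fold lower, where 4.44% were. The median log2 ratio was 0.44 for the 8 members and -0.07 for all genes measured there. These values rest on few cells, so the number of cells behind each is given. Sfrp2, a secreted frizzled-related protein of matrix-producing fibroblasts, had 803 CPM in anti-PD-1 (186 UMIs in 18 of 39 cells) and 259 CPM in control (141 UMIs in 16 of 46 cells) in fibroblast-like cells. Without the single cell with most Sfrp2 in each library, 568 CPM remained in anti-PD-1 and 186 CPM in control. Over all stromal cells its log2 ratio was 1.67 (1.34 to 1.99). Tumour cells had 0.485 CPM of Sfrp2 in anti-PD-1 and 0.716 CPM in control, and immune cells 0.521 and 1.11 CPM.

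Wnt5a had 203 CPM in anti-PD-1 (47 UMIs in 8 cells) and 77.1 CPM in control (42 UMIs in 13 cells) in fibroblast-like cells, and 120 and 54.3 CPM over all stromal cells, a log2 ratio of 1.15 (0.56 to 1.74). One anti-PD-1 cell held 36 of those UMIs. Without the cell with most Wnt5a in each library the levels were 52.3 CPM in anti-PD-1 and 58.3 CPM in control, so the difference rested on that cell. Sfrp4 had 268 CPM in anti-PD-1 (62 UMIs in 8 cells) and 147 CPM in control (80 UMIs in 12 cells) in fibroblast-like cells, and 106 and 77.2 CPM without the richest cell of each library. Over all stromal cells Sfrp4 stood at 152 CPM in anti-PD-1 and 81.9 CPM in control, a log2 ratio of 0.89 (0.39 to 1.39), beside 0.108 and 0.191 CPM in tumour cells and 0.174 and 0.887 CPM in immune cells.

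Wnt2, a ligand made by stromal cells of the lung, stayed just under the floor of measurement in stromal cells with 53 UMIs in anti-PD-1 and 44 in control. It had 229 CPM in anti-PD-1 (12 of 39 cells) and 80.8 CPM in control (11 of 46 cells) in fibroblast-like cells, and 169 and 47.2 CPM without the richest cell of each library. Tumour cells had 0.226 CPM of Wnt2 in anti-PD-1 and 0.203 CPM in control, and immune cells 2 UMIs in each library. Dkk3, the most divergent Dickkopf protein, had 104 CPM in anti-PD-1 and 44.1 CPM in control fibroblast-like cells on 24 UMIs in each library, 77.7 and 25.5 CPM without the richest cell, 0.0538 and 0.155 CPM in tumour cells, and 1 and 2 UMIs in immune cells. Sfrp1 was lower in anti-PD-1 fibroblast-like cells, with 21.6 CPM in anti-PD-1 (5 UMIs) and 51.4 CPM in control (28 UMIs), and the interval of its log2 ratio ran from -2.98 to 0.14. It had 6 UMIs in anti-PD-1 and 24 UMIs in control tumour cells, and 0 and 3 UMIs in immune cells.

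**Figure D4:**
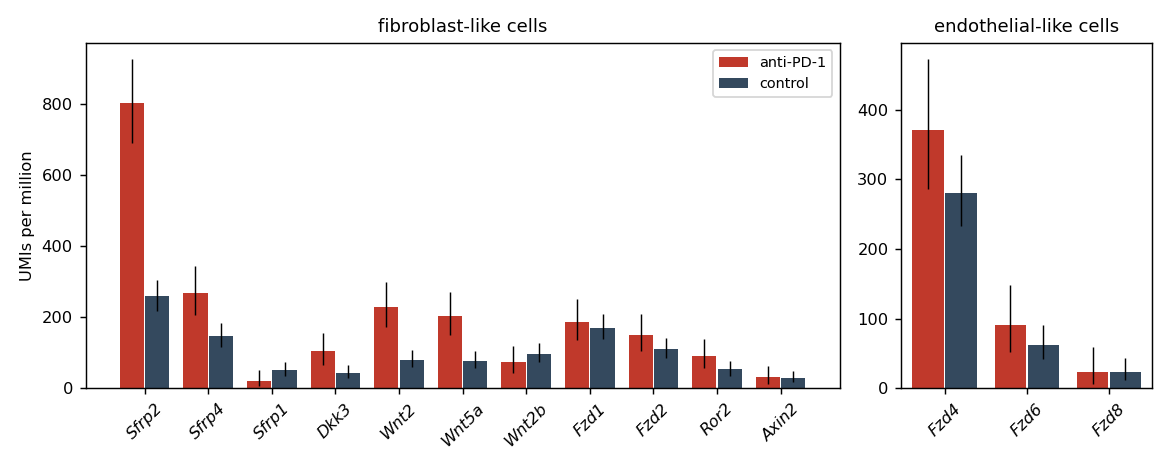
Levels of 11 members in fibroblast-like cells (39 anti-PD-1 and 46 control cells) and of 3 members in endothelial-like cells (25 and 40 cells), in CPM; anti-PD-1 bars stand left of control bars and error bars are exact 95% Poisson intervals for counting error. Sfrp2 was at 803 in anti-PD-1 and 259 in control, and Fzd4 at 371 and 281; 36 of the 47 Wnt5a UMIs in anti-PD-1 came from 1 cell.

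Among the receptors of the stroma, Fzd1 had 186 CPM in anti-PD-1 and 171 CPM in control fibroblast-like cells, Fzd2 151 and 110 CPM, and Ror2 90.7 and 53.3 CPM. The intervals of all 3 log2 ratios included 0, so no difference was detectable at this depth. Fzd4, the endothelial receptor for norrin and several Wnt ligands, had 371 CPM in anti-PD-1 (65 UMIs) and 281 CPM in control (121 UMIs) in endothelial-like cells, with an interval of -0.06 to 0.85. Fzd6 had 91.3 CPM in anti-PD-1 and 62.7 CPM in control endothelial-like cells, and Fzd8 22.8 and 23.2 CPM. In immune cells Fzd4 had 2.43 CPM in anti-PD-1 and 1.99 CPM in control, Fzd6 had 3 UMIs in each library, and Ror2 had none.

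Summed over all kept cells, 1 of 29 members, Dkk2, was over 2-fold higher in anti-PD-1, where 0.566% of 12727 genes were. Another 5 were over 2-fold lower, where 4.88% of genes were: Sfrp1 at 0.234 CPM in anti-PD-1 and 1.10 CPM in control, Axin2 at 0.425 and 0.980 CPM, Ror2 at 0.321 and 0.742 CPM, Fzd4 at 2.06 and 4.20 CPM, and Fzd6 at 0.381 and 0.768 CPM. All 5 stood higher in stromal than in tumour cells, and within stromal cells Fzd4, Fzd6 and Ror2 were higher in anti-PD-1 and Sfrp1 (17.2 CPM in anti-PD-1 and 28.7 CPM in control) and Axin2 (17.2 and 19.5 CPM) lower, with intervals that included 0 for all 5. The count was 1, Axin2, without cells over 3 times the median depth, where Fzd4 stood at -0.51 and the other 3 lay under the floor. It was 1 at a floor of 200 UMIs, 3 relative to the median gene, and 14 by the mean of each cell's own CPM. From such sums alone, fewer cells of a type and less RNA per cell cannot be told apart. Stromal cells were 0.690% of anti-PD-1 and 1.04% of control cells and held 0.353% and 0.862% of the UMIs. Their median depth was 4196 UMIs in anti-PD-1 and 5956 UMIs in control. Barcodes without a class held 14.2% of anti-PD-1 and 21.2% of control UMIs. The part of stromal cells and of these barcodes in the 5 lower sums was not tested. The median log2 ratio over all kept cells was -0.12 for the 29 members and -0.03 for all genes measured.

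In immune cells 0 of 9 measured members were over 2-fold higher in anti-PD-1, where 0.588% of 9517 genes were, and 1 of 9, Fzd1, was over 2-fold lower, where 1.56% were. Fzd1, a receptor for several ligands of the beta-catenin branch, had 8.51 CPM in anti-PD-1 (49 UMIs) and 20.6 CPM in control (93 UMIs), a log2 ratio of -1.28 (-1.81 to -0.76). It was lower in anti-PD-1 in both immune clusters with at least 20 Fzd1 UMIs over both libraries. These were cluster 2, led by Lyve1, Retnla and Fcna, with 7.70 CPM in anti-PD-1 and 21.2 CPM in control, and cluster 8, led by Ace and Chil3, with 14.6 and 31.3 CPM. Without cells over 3 times the median depth the ratio was -0.93, short of 2-fold. Immune cluster 1, with 65 anti-PD-1 and 71 control cells, had the fibroblast markers Col3a1, Dcn, Dpt and Lum among its leading genes. Whether it held mixed barcodes was not tested. Without this cluster the Fzd1 ratio was -1.30. Within it Dkk2 stood at 355 CPM in anti-PD-1 and 175 CPM in control. The median log2 ratio was 0.04 for the 9 members and -0.11 for all genes measured in immune cells.

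Lrp6 stood at 206 CPM in anti-PD-1 and 137 CPM in control immune cells, a log2 ratio of 0.59 (0.45 to 0.73). Its immune level was 134% of its tumour level in anti-PD-1 and 97.5% in control, above the median of 63.1% and 66.7% over all genes. Most of its UMIs came from cluster 2, with 283 CPM in anti-PD-1 and 194 CPM in control, and that cluster made up 39.5% of anti-PD-1 and 31.3% of control immune cells. Lrp5 had 138 CPM in anti-PD-1 and 147 CPM in control immune cells, with an interval of -0.24 to 0.06.

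Wnt10b stayed under the floor of 100 UMIs in immune cells, yet its log2 ratio there exceeded in size those of all 9 measured members. It had 6 UMIs (1.04 CPM) in anti-PD-1 and 75 UMIs (16.6 CPM) in control, a log2 ratio of -4.00 (-5.49 to -2.81). The control UMIs lay mostly in T cells. Among immune cells with at least 2 UMIs of the 6 T cell markers and fewer than 2 of the NK cell markers, 1 of 73 anti-PD-1 cells (1.37%, 0.0347% to 7.40%) and 26 of 152 control cells (17.1%, 11.5% to 24.0%) had a Wnt10b UMI. Their level was 8.41 CPM in anti-PD-1 and 133 CPM in control, on 1 and 58 UMIs, a log2 ratio of -3.99 (-9.31 to -1.45). Median depths were close, at 1328 UMIs in anti-PD-1 and 1400 UMIs in control.

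NK marker cells, taken for comparison, had a Wnt10b UMI in 0 of 103 anti-PD-1 cells and 0 of 76 control cells. At 3 counts this allows a share of up to 2.91% in anti-PD-1 (exact upper bound 3.52%) and 3.95% in control (exact upper bound 4.74%). The median depths of these cells were 1739 UMIs in anti-PD-1 and 1637.5 UMIs in control. Cells with at least 2 UMIs of both T and NK cell markers had a Wnt10b UMI in 5 of 41 control cells (12.2%, 62.6 CPM on 10 UMIs). In anti-PD-1 it was 0 of 6 such cells (exact upper bound 45.9%). Other immune cells had a Wnt10b UMI in 4 of 1488 anti-PD-1 cells and 7 of 1244 control cells. Within the T marker cells, those with a Cd8a and no Cd4 UMI had Wnt10b in 1 of 22 anti-PD-1 cells (4.55%) and 23 of 89 control cells (25.8%). Those with a Cd4 and no Cd8a UMI had it in 0 of 17 anti-PD-1 and 0 of 14 control cells, which at 3 counts allow shares of up to 17.6% and 21.4% (exact upper bounds 19.5% and 23.2%). In immune cluster 0, led by granzyme genes, the level was 3.24 CPM in anti-PD-1 (1 UMI) and 132 CPM in control (64 UMIs). The 6 T cell markers, all detected in both libraries, stood at 9.38 to 26.4 CPM each over immune cells in anti-PD-1 and at 15.1 to 83.8 CPM each in control. The part of T cell number and of the make-up of the T marker cells in the Wnt10b difference was not tested; cells with a Cd8a and no Cd4 UMI were 22 of the 73 T marker cells in anti-PD-1 and 89 of the 152 in control.

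**Figure D5:**
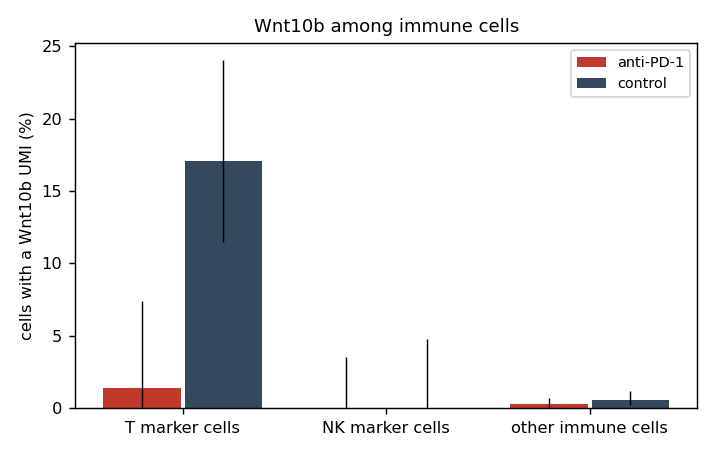
Share of T marker cells, NK marker cells and other immune cells with at least 1 Wnt10b UMI, in percent; anti-PD-1 bars stand left of control bars and error bars are exact 95% Clopper-Pearson intervals. The T marker cells had 1.37% in anti-PD-1 and 17.1% in control, and NK marker cells 0% in both libraries. Cells with markers of both T and NK cells are not shown.

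The rest of the pathway was read from a list of 61 further genes, of which 43 were measured in tumour cells. Of the 43, 0 were over 2-fold higher there, where 0.779% of all genes were, and 0 over 2-fold lower, where 2.83% were. Their median log2 ratio was 0.03. Wls, which carries Wnt ligands to the cell surface, had 282 CPM in anti-PD-1 and 198 CPM in control, a log2 ratio of 0.51 (0.49 to 0.54), while Porcn, which adds their lipid, had 2.30 and 2.47 CPM. Of the other secreted regulators, Draxin had 19.1 CPM in anti-PD-1 and 10.4 CPM in control, the highest log2 ratio of the list at 0.88. Of the 14 intracellular genes, all measured, Ctnnb1, which encodes beta-catenin, had 373 CPM in anti-PD-1 and 397 CPM in control, a log2 ratio of -0.09. Apc2, a homolog of the destruction-complex scaffold Apc, had 97.1 and 63.4 CPM, a log2 ratio of 0.62. Of the target genes measured, Myc had 1359 CPM in anti-PD-1 and 1893 CPM in control, a log2 ratio of -0.48, Cd44 had 1066 and 913 CPM, at 0.22, and Lef1 had 1.66 and 3.01 CPM, the lowest ratio at -0.86. Znrf3, Tcf7, Ccnd1 and Sox9 were lower in anti-PD-1 as well, at -0.20, -0.22, -0.07 and -0.32. Ascl2 was higher, at 0.40. The intervals for Tcf7 and Ascl2 included 0. Most of the target genes measured thus lay below 0, with a median of -0.21 over the 8.

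The 20 members under 100 UMIs had 13 to 74 UMIs over both libraries. They were the ligands Wnt1, Wnt3, Wnt3a, Wnt4, Wnt7a, Wnt8b, Wnt9b and Wnt16, the receptors Fzd3, Fzd8 and Fzd10, all 4 R-spondins, and the inhibitors Dkk1, Dkk4, Sfrp5, Frzb and Wif1. Of them 1, Wnt4, had the higher CPM in anti-PD-1 (32 UMIs, and 28 UMIs in control) and 19 had it in control, beside 97.6% of all 6305 genes with 1 to 99 UMIs. Their direction was that of nearly all rare genes, and it is not read as a difference of the pathway. Barcodes without a class held 41.5% of their UMIs in anti-PD-1 and 66.9% in control, beside 14.2% and 21.2% of all UMIs.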

How the data were processed

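The authors deposited raw counts of UMIs for each gene in each barcode. A Flex kit of 10x Genomics, in which probes for each gene stand in for its RNA, is named in the labels' protocol beside a 3' protocol. The matrix headers give Cell Ranger 9.0.1; version 7.0.1 and build mm10 come from the submitters' processing notes. Probe counts depend on each probe, so levels are not compared between genes. Barcodes under 300 genes or over 20% mitochondrial UMIs were left out; doublets were not called, and barcodes with markers of several classes were left unassigned instead. A class needed at least 3 marker UMIs. Tumour cells needed 300 CPM of 4 tumour markers and immune cells 3000 CPM of 10 immune markers. Stromal cells needed 3000 CPM of endothelial markers or of 5 of 10 fibroblast markers, or 1500 CPM of mural markers. The 5 were Col1a1, Pi16, Mfap5, Clec3b and Col14a1. A smaller set was used because tumour cells share fibroblast markers, but all 10, these 5 included, were detected in tumour cells. Tumour and immune cells had under 1500 CPM of every other class, and stromal cells under 1500 CPM of immune markers. Immune and stromal cells also had under 300 CPM of tumour markers. No limit was set between the stromal kinds. A barcode past several of their thresholds was called endothelial-like first, then fibroblast-like, then mural-like. These thresholds were set after marker levels were seen. Clusters came from scanpy 1.11.5 (2000 variable genes without members or class markers, 40 components, 15 neighbours, Leiden resolution 1). UMIs were summed per class and scaled to 1000000. Intervals are 95%, exact Poisson for CPM and exact binomial (Clopper-Pearson) for shares and log2 ratios, and with the limits set by a count of 0 (3 counts) they cover counting error only; the ratio functions were tested on simulated data. Members with at least 100 UMIs in all kept cells are given one by one and the others by count and range; further pathway genes are named past 2-fold, and those named here without that were chosen after their values were seen. Members, lists and tests were chosen with earlier results of these data known. The 14 alternatives cover barcodes kept, depth, floors, scaling, class thresholds and clusters. Promoters are RefSeq sequences; 31 of 49 members had one. Positions are GENCODE M21 (mm10), matched by gene ID for 49 of 49 members.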

Additional observations from a re-analysis of the deposited data

Results flagged for a closer look

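Wnt10b had opposite directions in different cell classes. Its log2 ratio, anti-PD-1 over control, was 0.84 in tumour cells, -4.00 in immune cells and 2.04 in stromal cells; with 1 library per group the difference between the classes was not tested. Without cluster 12 the tumour value was 0.10, and in immune cells Wnt10b lay under the floor of 100 UMIs. The stromal value rests on 12 UMIs in 4 anti-PD-1 cells and 7 UMIs in 5 control cells. Of the 12, 7 came from 1 fibroblast-like cell; without the cell with most Wnt10b in each library, fibroblast-like cells had 22.9 CPM in anti-PD-1 and 8.58 CPM in control.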

How the results depend on the processing

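No paired analysis was possible because each group has 1 library. No ratio past 2-fold changed its sign under any alternative that could be computed. Of the member ratios recomputed, 34 of 217 in all cells, 24 of 253 in tumour, 5 of 71 in stromal and 5 of 91 in immune cells moved beyond their counting interval, and 6, 9, 5 and 4 changed sign, all of them within 2-fold at the start. Counts of members past 2-fold also moved. With the mean of each cell's own CPM, 2 members were higher and 14 lower in all cells (median log2 ratio -0.54), 0 lower in tumour cells and 2 lower in immune cells. A floor of 50 UMIs gave 9 lower in all cells, 2 lower in immune cells and 3 genes of the further pathway list; a floor of 200 UMIs gave 1 lower in all cells, 0 lower in tumour cells, 1 higher in stromal cells and 0 lower in immune cells, since fewer genes were tested. Without cells over 3 times their class's median depth, 1 was lower in all cells, 1 higher in stromal cells and 0 lower in immune cells. Relative to the median gene, 3 were lower in all cells. With class thresholds doubled, 2 were higher in tumour cells (Wnt10b joined Dkk2) and 1 in immune cells. With classes from Leiden clusters, 5 were higher in stromal cells, 3 lower in immune cells and 1 gene of the pathway list passed. With tumour clusters weighted equally, without cluster 12, or without barcodes found in both libraries (alternatives chosen after seeing the data), 0 were lower in tumour cells. The cause of the other moves was not tested. The Dkk2 ratio in tumour cells lay between 1.12 and 1.21 and the Wnt6 ratio between -0.99 and -0.84 over all alternatives. Over all kept cells Wnt10b was 0.32, and -1.51 by each cell's own CPM, and Sfrp4 was -0.41, and 0.43 without the deepest cells. Stromal values are limited by 65 anti-PD-1 and 87 control cells.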
